A study of Mus musculus with 12 samples.

Results

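The ribosome biogenesis factors are nucleolar and pre-ribosomal proteins that make ribosomes without being part of the finished ribosome. They were chosen as 39 named mouse genes, and each gene was read from the Affymetrix Mouse Genome 430 2.0 probe sets whose symbol in the platform's probe table is that gene alone. Of these genes, 38 had a probe set of their own, with 72 probe sets in all, against 12754 genes tested on the array. Mrto4, a factor of late large subunit assembly, shared its probe set with other genes and has no value here. All 38 genes passed the filter on dim probe sets.

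RNA came from CTLL-2, a mouse cytotoxic T cell line derived from a C57BL/6 animal that depends on the cytokine interleukin 2 (IL-2). In every group the cells had been grown with 50 U/mL human IL-2, were then kept without it for 14 h, and received 20 µg/mL cycloheximide, which blocks translation. The 30 min group (4 arrays) had cycloheximide for 30 min, and the 4.5 h group (4 arrays) had it for 4.5 h without any IL-2. The IL-2 group had cycloheximide for 30 min and then 100 U/mL human IL-2 for 4 h, so its matched control in time is the 4.5 h group. Of its 4 arrays, replicate 3 lacked T cell transcripts and was left out, which leaves 3 arrays (replicates 1, 2 and 4). Because every group received cycloheximide, no group shows these genes with translation running.

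Ribosome production starts in the nucleolus, where RNA polymerase I transcribes a long precursor of the ribosomal RNAs. Small nucleolar ribonucleoproteins modify that precursor: box C/D particles guide methylation and box H/ACA particles guide pseudouridylation. Large assemblies, the small subunit processome and the early large subunit particles, cleave and fold the precursor while ribosomal proteins join it, and late factors stay with the particles until export to the cytoplasm. Growth signals such as IL-2 are known to raise ribosome production in T cells, and the transcription factor MYC, which binds E-box sequences, is known to activate many of these genes.

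The E-box is shown first because its letters can be read in the promoters of several members. The motif searched was CACGTG, a palindrome and therefore the same on both strands, in RefSeq windows from 250 bases before to 50 bases after each gene's start (build GRCm38.p6). Of the 39 members 33 had a window, and 8 of these (24.2%) held the motif. It stood in 8.1% of the windows of all 27025 genes with one, and in 11.1% of the 10318 tested genes with one. The early small subunit members held it in 3 of 8 windows, the late members in 2 of 4, the early large subunit members in 2 of 11 and the organisers in 1 of 4. No window of the 4 box H/ACA or the 2 box C/D members with one held it. Of the 8 motifs, 7 began 3 to 41 bases after the start and that of Nop2 began 60 bases before it. A match is a run of letters, not evidence of binding. Npm1, Fbl, Naf1, Bop1, Rrs1 and Rrp12 had no window in the table. In the sequences that follow, written 5′ to 3′ on the strand of the gene, capitals mark the motif and up to 10 bases stand on each side.
Wdr43, chr17:71616222-71616247, plus strand: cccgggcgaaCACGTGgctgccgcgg
Utp4, chr8:106893645-106893670, plus strand: cgcaagcgcgCACGTGgggccggggc
Utp20, chr10:88826765-88826787, minus strand: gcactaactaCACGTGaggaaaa
Mybbp1a, chr11:72441357-72441376, plus strand: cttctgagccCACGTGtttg
Nop2, chr6:125131813-125131838, plus strand: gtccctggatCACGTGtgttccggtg
Pes1, chr11:3963967-3963992, plus strand: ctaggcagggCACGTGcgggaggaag
Tsr1, chr11:74898094-74898119, plus strand: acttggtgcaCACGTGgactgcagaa
Ltv1, chr10:13193094-13193119, minus strand: cctgtggaccCACGTGtggagctgcc

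The values are linear signals that had been scaled to the same trimmed mean on each array. Differences are on the log2(signal + 16) scale, given with the standard error of the limma fit, and a gene is called when its Benjamini-Hochberg adjusted p is under 0.05 and its difference is at least 2-fold. The brightest probe set stands for each gene. Whether replicates came from separate cultures is not said in the labels. The p-values therefore measure spread between arrays, which may be technical, and the number of arrays limits the precision. Scanning took 3 days, with 3 arrays each of the IL-2 and 30 min groups on the first and the whole 4.5 h group alone on the third. In comparisons with the 4.5 h group, scan day and group cannot be told apart. Summed signals of 11 T cell markers were 155949 to 168620 on the 3 IL-2 arrays, 186215 to 274156 at 30 min and 182687 to 231562 at 4.5 h, and 433 on the array left out, where 10 of the 11 markers were below all other arrays. Cd2 had at most 14.7 on the 11 arrays, so it did not mark these cells. Summed signals of 12 muscle markers were at most 5244 on the 11 arrays, most of it from Ckm, and 223314 on the array left out. On those 11 arrays the sums reached at most 328 for 4 B cell, 1873 for 5 myeloid and 398 for 5 fibroblast markers. The log2 difference between the 3′ and 5′ actin control probe sets was 0.56 ± 0.17 (SD, n = 4) at 4.5 h, 0.29 ± 0.04 (SD, n = 4) at 30 min and 0.25 ± 0.03 (SD, n = 3) with IL-2. The part of this RNA quality measure in the results was not tested.

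Over time in cycloheximide without IL-2, the biogenesis factors were higher at 4.5 h than at 30 min almost throughout. Of 38 genes, 13 (34.2%) were called higher and 0 lower, against a background of 7.22% of all genes called higher and 4.75% called lower. Without the fold threshold 29 were higher (background 20.0%) and 0 lower (13.7%). The groups did not overlap for 28 genes, all higher at 4.5 h (background 21.2%). The median difference was 0.68 against 0.08 over all genes tested, and 37 members were above 0, the exception being Nop14 at -0.41 ± 0.21. In bulk RNA, fewer cells of a kind and less RNA per cell cannot be told apart.

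With IL-2 for 4 h against the 30 min group, 13 genes (34.2%) were again called higher and 0 lower (backgrounds 6.94% and 4.46%). These groups differ both in IL-2 and in time since cycloheximide was added, which cannot be told apart in this comparison. Without the fold threshold 26 were higher (background 14.5%) and 1, Npm1, was lower (12.5%). The groups did not overlap for 29 higher (background 18.9%) and 2 lower members (17.6%). The median was 0.75, against -0.03 over all genes. Within the first scan day alone, with 3 arrays against 3, 14 members were called higher and 0 lower. Of all 27022 probe sets, 1515 were called higher there and 993 lower. With scan day as a fixed block the count was also 14, which is not a second check. Once IL-2 replicate 3 is left out, the second day holds only replicate 3 of the 30 min group, so the block sets that array aside. This comparison shares the 30 min arrays with the one before it, so the values of both are given side by side and not as independent findings.

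At matched time few members were called. Against the 4.5 h arrays, 3 members rose with IL-2 (Naf1, Rrp1b and Gnl3; background 5.04%) and 2 fell (Dkc1 and Nhp2; background 5.94%). These are 7.9% and 5.3% of the members, near the background. Without the fold threshold 7 were higher and 7 lower, 18.4% of the members in each direction, against backgrounds of 13.2% and 16.1%. The groups did not overlap for 12 higher (background 20.7%) and 9 lower genes (24.9%), and the median was 0.09 against -0.07 over all genes. These directions depend on the scale. Centring each array on its ribosomal protein genes moved the median of all probe sets at matched time from -0.02 to 0.68, and relative to that scale 12 members (31.6%) were called higher and 0 lower, near the background of 25.4% of all genes called higher. The same centring moved the median of all probe sets over time from 0.01 to -0.27, with 4 members (10.5%) called higher against 3.15% of all genes, and that of IL-2 against 30 min from -0.04 to 0.37, with 23 (60.5%) called higher against 14.9%.

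Probe sets of one gene often gave different values. Of the 38 genes, 23 had at least 2 tested probe sets. In no comparison were probe sets of 1 gene called in opposite directions, but values of opposite sign occurred in 4 genes over time, 2 against 30 min and 8 at matched time. Over time 22 of 70 tested probe sets of the members were called higher and 0 lower, against 6.48% and 6.76% of all probe sets. Against 30 min 27 were called higher and 0 lower (6.32% and 4.26%), and at matched time 5 higher and 2 lower (6.63% and 5.51%). The call differed among the probe sets of 9 genes over time, 4 against 30 min and 4 at matched time, and the values of these genes' other probe sets are given with each gene.

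**Figure D1:**
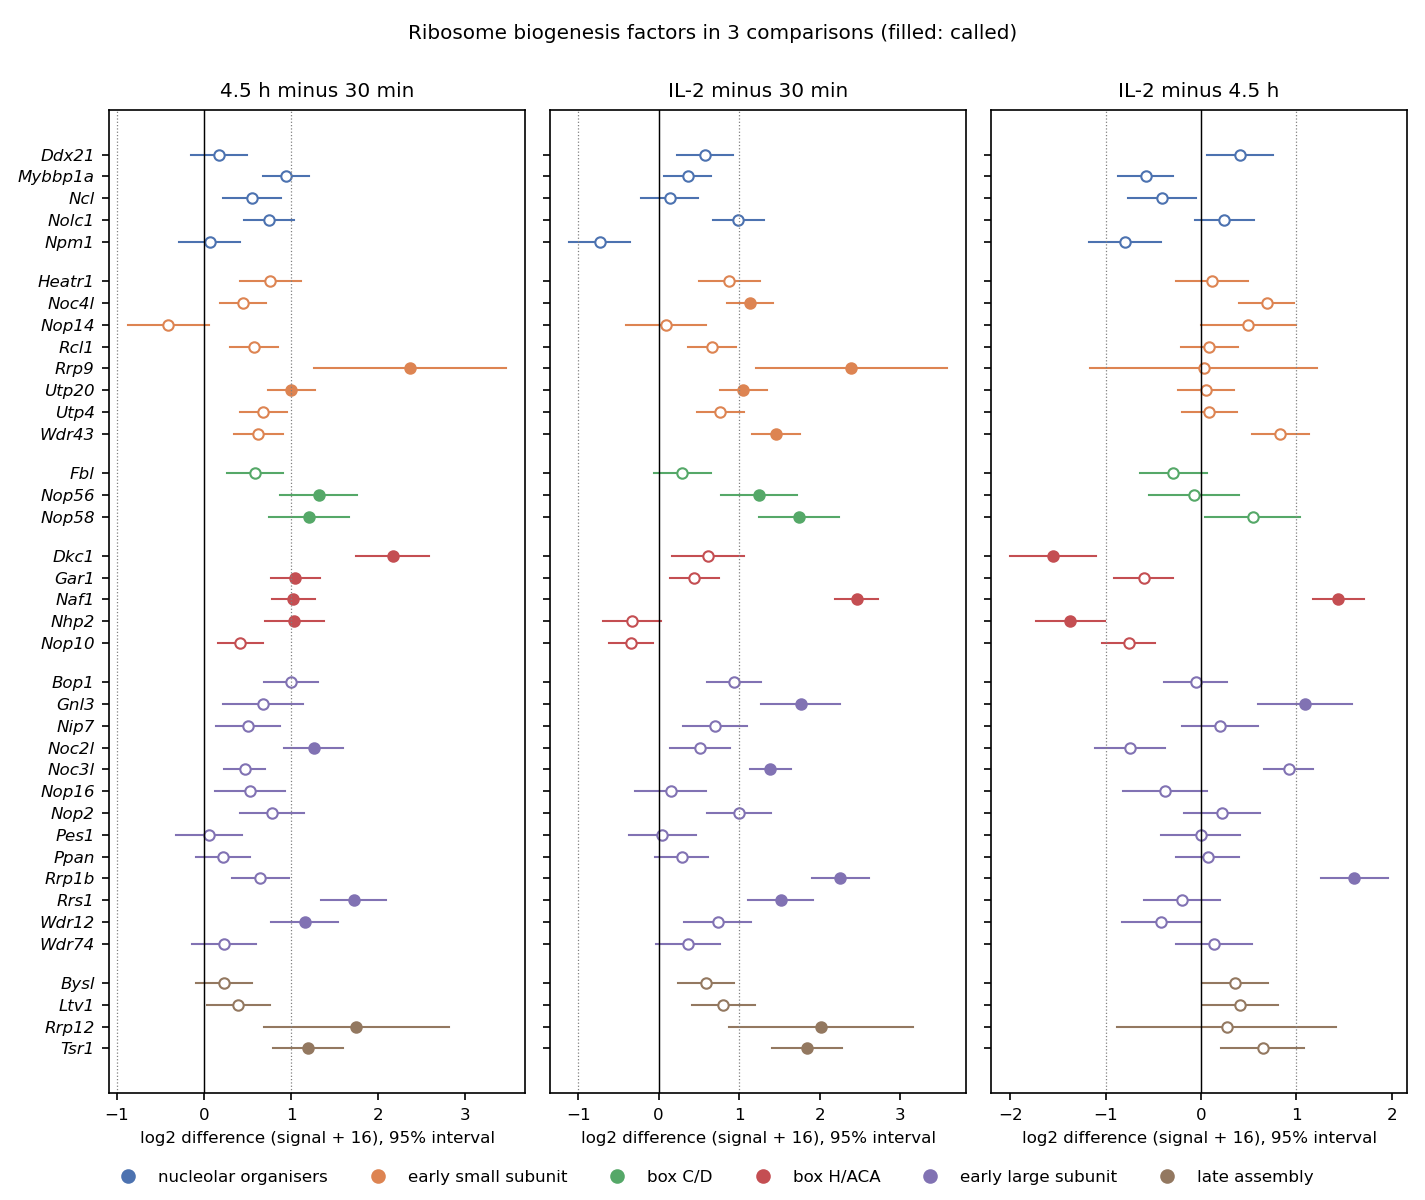
Log2 difference (horizontal axis, signal + 16) of each of 38 ribosome biogenesis factors in 3 comparisons, with the 95% interval of the fit as a line; genes are grouped and coloured by role and filled points were called. In the first panel 13 points are filled and 1 gene, Nop14, is below 0; in the third the filled points are Naf1, Rrp1b and Gnl3 on the right and Dkc1 and Nhp2 on the left.

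Among the nucleolar organisers and proteins linked to RNA polymerase I, no gene was called in any comparison on its brightest probe set, although a dimmer probe set of Nolc1, Ncl and Ddx21 was called higher over time and against 30 min. On the brightest probe sets Mybbp1a and Npm1 were lower with IL-2 at matched time without reaching 2-fold. Mybbp1a, a nucleolar protein that associates with ribosomal DNA transcription, had signals of 1445, 1366, 1788 and 1438 at 30 min, 2885, 2794, 2962 and 2947 at 4.5 h and 1944, 1941 and 1905 with IL-2. The 4.5 h arrays were highest and no 2 groups overlapped. Its difference was 0.94 ± 0.12 over time (adjusted p = 0.000334), 0.36 ± 0.13 for IL-2 against 30 min (0.0715) and -0.58 ± 0.13 at matched time (0.00795). With ribosomal protein centring the last of these was 0.11. The other Mybbp1a probe set gave 0.68 (adjusted p = 0.00912), 0.27 (0.311) and -0.41 (0.104) in that order. On that probe set the IL-2 arrays overlapped both other groups. The matched difference thus passed the adjusted p on 1 of 2 probe sets.

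Npm1 encodes nucleophosmin, an abundant nucleolar chaperone. Its signals were 26879.5, 32297, 26342 and 21332 at 30 min, 25966, 31566, 26256 and 27049.7 at 4.5 h and 17493, 17059 and 13466 with IL-2. The 3 IL-2 arrays lay below all 8 others, which overlapped each other. The difference was -0.80 ± 0.17 at matched time (adjusted p = 0.00648), -0.73 ± 0.17 against 30 min (0.0107) and 0.06 ± 0.16 over time (0.796). With quantile normalization these were -0.25 at matched time (adjusted p = 0.175) and -0.38 against 30 min (0.0568), and with ribosomal protein centring -0.10 (0.685) and -0.32 (0.256), so the adjusted p was lost on both scales. A second Npm1 probe set gave -0.25 at matched time (adjusted p = 0.325) and -0.61 against 30 min (0.0302). Nolc1, a chaperone of small nucleolar ribonucleoproteins, moved otherwise. Its signals were 862, 829.8, 645 and 863 at 30 min, 1318, 1259, 1348 and 1456 at 4.5 h and 1516, 1644 and 1627 with IL-2, without overlap between groups. The differences were 0.75 ± 0.13 over time (adjusted p = 0.00181), 0.99 ± 0.14 against 30 min (0.000725) and 0.24 ± 0.14 at matched time (0.23). A dimmer Nolc1 probe set was called over time and against 30 min, at 1.69 and 1.17, and gave -0.51 at matched time (adjusted p = 0.0324), whereas the other gave 0.23, 0.67 and 0.45. The direction of Nolc1 at matched time thus differed between its probe sets. Ncl, which encodes nucleolin, an RNA-binding protein of the nucleolus, was -0.41 ± 0.16 at matched time (adjusted p = 0.0829) and 0.55 ± 0.15 over time (0.0173). Of 4 other Ncl probe sets 1 was called, at 1.29 over time (adjusted p = 0.00598) and 1.32 against 30 min (0.0101). Ddx21, a nucleolar RNA helicase, was 0.41 ± 0.16 at matched time (adjusted p = 0.0801) and 0.58 ± 0.16 against 30 min (0.0218). Its other probe set was called at 1.36 over time and 1.35 against 30 min (adjusted p = 0.000169 and 0.000294), and gave -0.01 at matched time. The median over these 5 genes at matched time was -0.41, and it turned to 0.04 under quantile normalization and 0.28 under ribosomal protein centring. With the mean over the probe sets of a gene it was 0.06, so its sign depended on the probe set rule as well.

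The early small subunit processome genes were all above 0 in both comparisons with IL-2, although none of the 8 was called at matched time on its brightest probe set. Over time 2 were called higher (background 7.22%) and 7 of 8 were higher by the adjusted p alone (background 20.0%). Against 30 min 4 were called higher (background 6.94%). Wdr43, a subunit of the processome arm that binds the first part of the precursor, had signals of 1275, 1305, 1113 and 1139.6 at 30 min, 1885, 2025, 1796 and 1772 at 4.5 h and 3162, 3068 and 3830.2 with IL-2. The groups were stacked in that order without overlap. It rose by 1.46 ± 0.14 on the log2 scale against 30 min (adjusted p = 6.66e-05), and the difference was 0.62 ± 0.13 over time (0.00392) and 0.83 ± 0.14 at matched time (0.00158). The other Wdr43 probe set was called at 1.89 over time and 1.83 against 30 min, but gave -0.07 at matched time (adjusted p = 0.794). The stacked order and the matched difference were thus seen on 1 of 2 probe sets. A partner in that arm, Utp4, gave 0.68 ± 0.12 over time, 0.77 ± 0.13 against 30 min and 0.09 ± 0.13 at matched time (adjusted p = 0.00189, 0.0019 and 0.667).

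Noc4l, a processome protein that in yeast works with Nop14, had signals of 1149.6, 1316, 1315 and 1142 at 30 min, 1744, 1634, 1699 and 1636 at 4.5 h and 2591, 2513 and 3078 with IL-2. Again no groups overlapped, and IL-2 was highest. The gene rose by 1.14 ± 0.13 against 30 min (adjusted p = 0.000215), with 0.45 ± 0.12 over time (0.0176) and 0.69 ± 0.13 at matched time (0.00337). Its 3 other probe sets were all called against 30 min, at 1.14 to 1.37, and gave 1.01, 0.44 and 0.89 at matched time, of which the first was called (adjusted p = 0.00134). Nop14 itself ran from 739 to 1161 at 30 min, 552 to 994 at 4.5 h and 953 to 1099.9 with IL-2. Its differences did not pass the test in any comparison (adjusted p = 0.168, 0.823 and 0.129), with a 95% interval over time of -0.87 to 0.05.

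Utp20, a large scaffold of the processome, had signals of 377, 327, 328 and 354 at 30 min, 699.7, 791, 657 and 698 at 4.5 h and 709, 825 and 679.7 with IL-2. The 30 min arrays were about a factor of 2 below the others, and the 4.5 h and IL-2 arrays overlapped. It rose by 1.00 ± 0.12 over time (adjusted p = 0.000264) and 1.05 ± 0.13 against 30 min (0.00035), both close to the fold threshold, and its difference at matched time was 0.05 ± 0.13 (0.817). Heatr1, a processome protein also needed for RNA polymerase I transcription, gave 0.76 ± 0.16 over time (adjusted p = 0.00461) and 0.88 ± 0.17 against 30 min (0.00411). Its other probe sets, which were dim, gave 0.12 and -0.23 over time (adjusted p = 0.782 and 0.4995). Against 30 min they gave 0.62 and 0.46 (adjusted p = 0.1545 and 0.217). Rcl1, a processome protein related to RNA cyclases, gave 0.57 ± 0.13 over time (0.00616) and 0.66 ± 0.14 against 30 min (0.0056). At matched time neither passed the test, at 0.12 ± 0.17 and 0.09 ± 0.14 (adjusted p = 0.663 and 0.679).

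Rrp9, a protein of the box C/D particle that guides early cleavage, was dim and uneven at 30 min. It is given array by array by a choice made after its values were seen, as are Nhp2 and Gnl3. Its signals were 12.7, 177, 121 and 30.5 at 30 min, 382, 356, 398 and 390.2 at 4.5 h and 378, 357 and 436 with IL-2. All 30 min arrays lay below all others and spread widely among themselves. It rose by 2.37 ± 0.50 over time (adjusted p = 0.00492) and 2.39 ± 0.54 against 30 min (0.00885), with standard errors of 0.50 and 0.54. The size of these changes is therefore known only within 95% intervals of 1.26 to 3.47 and 1.2 to 3.58.

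Of the box C/D core genes, Nop58 and Nop56, which encode the paired scaffold proteins of the particle, rose in both comparisons with 30 min. None of the 3 genes passed the test at matched time. Nop58 had signals of 318, 429, 486 and 512 at 30 min, 1240.1, 758, 1137 and 973 at 4.5 h and 1314, 1324 and 1853 with IL-2. The groups did not overlap, although the top 4.5 h array came close to the lowest IL-2 array. The gene rose by 1.2 ± 0.21 over time (adjusted p = 0.00168) and 1.74 ± 0.22 against 30 min (0.000398), and the matched difference was 0.54 ± 0.22 (0.0996).

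Nop56 had signals of 1091, 989.8, 1888 and 1088 at 30 min, 2806, 3626, 2914 and 2964 at 4.5 h and 2786, 2887 and 3072 with IL-2. Replicate 3 at 30 min stood above its group, and still below every array of the other groups. Nop56 rose by 1.32 ± 0.20 over time (adjusted p = 0.000779) and 1.24 ± 0.21 against 30 min (0.0021). Its matched difference was -0.07 ± 0.21 (0.84), with a 95% interval of -0.55 to 0.40. The other Nop56 probe set gave 0.92 over time, just under 2-fold, and was called at 1.17 against 30 min. At matched time that probe set gave 0.25 (adjusted p = 0.233). Fbl encodes fibrillarin, the methyltransferase of the particle. Its signals were 1865, 1925, 2037 and 1826 at 30 min, 3265, 2649.8, 3164 and 2502 at 4.5 h and 1978, 2372 and 2771 with IL-2. The IL-2 arrays overlapped both other groups. Fbl was 0.59 ± 0.15 over time (adjusted p = 0.0116), 0.30 ± 0.16 against 30 min (0.21) and -0.29 ± 0.16 at matched time (0.203). The other Fbl probe set gave 0.94 (adjusted p = 0.00153), 0.47 (0.0774) and -0.48 (0.0645) in that order, and there no groups overlapped. The brightest probe sets of Nop56 and Fbl are of a type that can hybridize with other transcripts, and their other probe sets are not. The median of the 3 genes was 1.2 over time, 1.24 against 30 min and -0.07 at matched time, and the last turned to 0.62 under ribosomal protein centring. It was also above 0 without probe sets that can hybridize with other transcripts (0.25) and with the mean over the probe sets of a gene (0.09).

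The box H/ACA genes separated from one another. Over time all 5 were higher by the adjusted p (background 20.0%), 4 of them called (background 7.22%), with a median of 1.04. At matched time the mature particle's core genes had lower signals with IL-2 on the deposited scale, Dkc1 and Nhp2 by more than 2-fold, while Naf1, which encodes an assembly factor absent from the finished particle, rose. Dkc1 encodes dyskerin, the pseudouridine synthase of the particle, which also belongs to telomerase. Its signals were 327, 339, 407 and 385 at 30 min, 2003, 1131, 1872 and 1889.8 at 4.5 h and 507, 615 and 570.3 with IL-2. Every 4.5 h array was above every IL-2 array, and every IL-2 array above every 30 min array, with replicate 2 at 4.5 h below its group. Dkc1 rose by 2.16 ± 0.19 over time (adjusted p = 4.83e-05) and fell by 1.55 on the log2 scale with IL-2 at matched time (0.000462), and it was 0.61 ± 0.20 against 30 min (0.0519). The 2 other Dkc1 probe sets gave 1.29 and 1.32 over time, both called, and 0.55 and 1.07 against 30 min, the second called (adjusted p = 0.0241). They gave -0.74 and -0.24 at matched time (adjusted p = 0.0159 and 0.591), and the mean over the 3 was -0.85. The fall by more than 2-fold was thus seen on 1 of 3 probe sets.

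Nhp2 encodes an RNA-binding core protein of the particle. Its signals were 3326, 3091, 4620.2 and 3768 at 30 min, 7927, 6837, 7968 and 7426 at 4.5 h and 2569.7, 3125 and 3021 with IL-2. The 4.5 h arrays were highest, and the IL-2 arrays overlapped the 30 min ones. Nhp2 rose by 1.04 ± 0.15 over time (adjusted p = 0.000645) and fell by 1.37 at matched time (0.000283), and it was -0.34 ± 0.16 against 30 min (0.171). The probe set read here is of a type that can hybridize with other transcripts. The remaining Nhp2 probe set gave 0.32 over time (adjusted p = 0.153) and -0.75 at matched time (0.00916), so the call was lost there in both comparisons.

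Gar1, the core protein that takes the place of Naf1 when the particle matures, had signals of 1082, 870.4, 1036 and 884 at 30 min, 1947, 1926, 1957 and 2227 at 4.5 h and 1188, 1380.5 and 1395 with IL-2. The 4.5 h arrays were highest and the 30 min arrays lowest, without overlap. Gar1 rose by 1.05 ± 0.13 over time (adjusted p = 0.000265), was 0.45 ± 0.14 against 30 min (0.0404) and was -0.60 ± 0.14 at matched time (0.00918). Its single probe set is also of the type that can hybridize with other transcripts, and its matched difference was 0.09 under ribosomal protein centring. Nop10, the smallest core protein, was 0.42 ± 0.12 over time (adjusted p = 0.02) and -0.76 ± 0.13 at matched time (0.00169). Its signals were 8014 to 9055 at 4.5 h and 4783 to 5176 with IL-2, and 30 min lay between.

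Naf1 was highest with IL-2. Its signals were 1009, 999.6, 885 and 1022 at 30 min, 1962, 1900.1, 2036 and 2122 at 4.5 h and 5348, 5762 and 5297 with IL-2. The groups were stacked without overlap, with IL-2 at 5469 ± 255 (SD, n = 3) against 2005 ± 95.9 (SD, n = 4) at 4.5 h and 979 ± 62.9 (SD, n = 4) at 30 min. Naf1 rose by 1.02 ± 0.11 over time (adjusted p = 0.00015), by 1.44 ± 0.12 with IL-2 at matched time (5.09e-05) and by 2.46 ± 0.12 against 30 min (1.98e-06). Within the first scan day the last value was 2.42. The matched median of the 5 box H/ACA genes was -0.76 and was -0.07 under ribosomal protein centring, where Dkc1 was -0.86, Nhp2 -0.68 and Naf1 2.13.

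**Figure D2:**
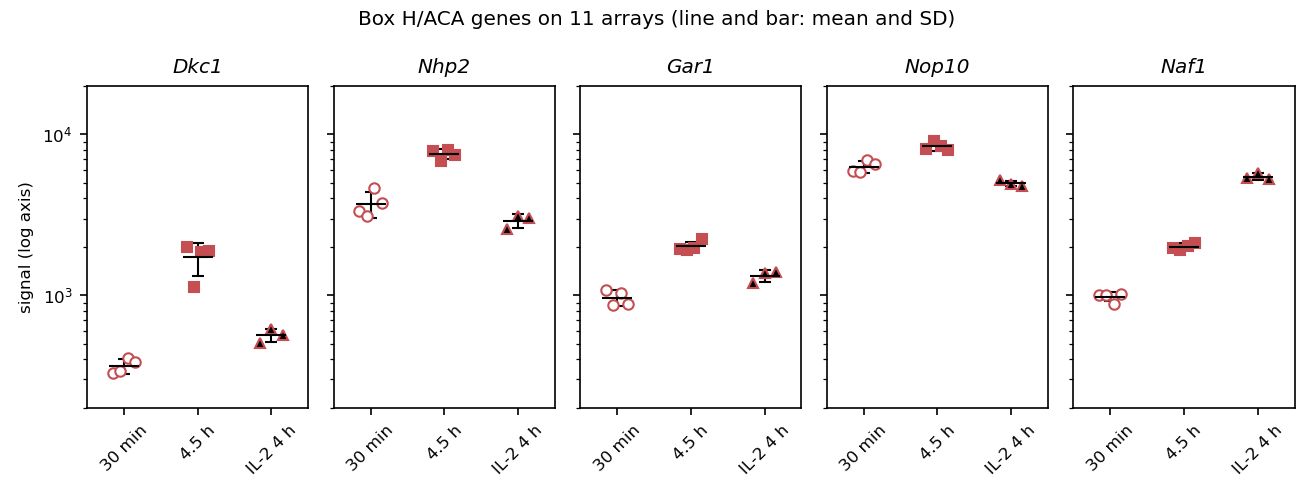
Signal (log axis) of 5 box H/ACA genes on 4 arrays at 30 min (circles), 4 at 4.5 h (squares) and 3 with IL-2 for 4 h (triangles), with the mean as a line and the SD as a bar. Dkc1, Nhp2, Gar1 and Nop10 are highest at 4.5 h and lower with IL-2 on the deposited scale, and Naf1 is highest with IL-2. Gar1 was higher with IL-2, by 0.09, under ribosomal protein centring.

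Of the 13 early large subunit genes, 3 were called higher over time, 4 against 30 min and 2, Rrp1b and Gnl3, at matched time, against backgrounds of 7.22%, 6.94% and 5.04%. All 13 were above 0 in both comparisons with 30 min. Rrp1b, a nucleolar protein of pre-ribosomal RNA processing, had signals of 1034, 931, 932 and 1159.6 at 30 min, 1396, 1862, 1585 and 1557 at 4.5 h and 4316, 4684 and 5782 with IL-2. No groups overlapped, and the IL-2 arrays were at least a factor of 2 above all others. Rrp1b rose by 1.61 ± 0.16 at matched time (adjusted p = 0.000112) and 2.26 ± 0.16 against 30 min (1.5e-05), and was 0.65 ± 0.15 over time (0.00741). Its other probe sets gave 1.24, which was called, and 0.72 at matched time.

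Gnl3 encodes nucleostemin, a nucleolar GTP-binding protein. Its signals were 1549, 1539, 2569 and 2588 at 30 min, 3586, 2653, 3397 and 3242 at 4.5 h and 6284, 6565 and 7661 with IL-2. The IL-2 arrays were above all others. Gnl3 rose by 1.09 ± 0.22 at matched time (adjusted p = 0.00513), close to the fold threshold, and by 1.76 ± 0.22 against 30 min (0.000359). Over time it was 0.68 ± 0.21 (0.0294). Leaving out 1 array at a time moved its matched value between 1.00 and 1.14, and the lower value, without replicate 2 at 4.5 h, fell just short of 2-fold.

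Noc3l, which with Noc2l is known from yeast to accompany early large subunit particles, had signals of 395, 369.8, 345 and 362 at 30 min, 498, 525, 526 and 509 at 4.5 h and 1009.6, 953 and 999.7 with IL-2. Spread within groups was small and nothing overlapped. Noc3l rose by 1.39 ± 0.12 against 30 min (adjusted p = 3.22e-05), with 0.47 ± 0.11 over time (0.00745) and 0.92 ± 0.12 at matched time (0.000385). Its other probe set split the difference otherwise, with 1.24 over time, which was called, 1.41 against 30 min and 0.17 at matched time (adjusted p = 0.455). Noc2l ran from 345 to 557 at 30 min, 1008 to 1202 at 4.5 h and 607 to 717 with IL-2. It rose by 1.26 ± 0.15 over time (adjusted p = 0.00027) and was -0.74 ± 0.17 at matched time (0.00815). The matched difference was -0.05 under ribosomal protein centring (adjusted p = 0.865) and -0.42 as the mean over its probe sets (0.0713). Its dimmer probe set gave -0.30 over time (adjusted p = 0.42) and -0.10 at matched time (0.831).

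Rrs1, a factor that helps to place a small ribosomal RNA in the large subunit, had signals of 1199, 762, 826 and 1061 at 30 min, 3209, 2890.1, 3276 and 3248 at 4.5 h and 2816, 2332 and 3129 with IL-2. The 30 min arrays lay well below the others, and the 4.5 h and IL-2 arrays overlapped. Rrs1 rose by 1.72 ± 0.17 over time (adjusted p = 8.57e-05) and 1.52 ± 0.18 against 30 min (0.000269), and the matched difference was -0.20 ± 0.18 (0.453). Its other probe set, of the type that can hybridize with other transcripts, was called at 2.06 over time and 1.54 against 30 min. At matched time that probe set gave -0.52 (adjusted p = 0.0238), with every IL-2 array below every 4.5 h array. The overlap of these groups was thus seen on 1 of 2 probe sets.

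The genes of the PeBoW complex, in which Pes1, Bop1 and Wdr12 act together in large subunit processing, gave unequal values. Wdr12 rose by 1.16 ± 0.17 over time (adjusted p = 0.000768), from 173 to 256 at 30 min to 376 to 574 at 4.5 h. Its other tested probe set gave 0.11 over time (adjusted p = 0.867). Bop1 was 1.00 ± 0.14 over time (adjusted p = 0.000526), just under 2-fold, but a dim second probe set gave -0.91 (0.274) and the mean over both was 0.04. Pes1 did not pass the test in any comparison, at 0.05 ± 0.17 over time and -0.01 ± 0.19 at matched time (adjusted p = 0.846 and 0.987). Its 95% intervals were -0.33 to 0.43 and -0.42 to 0.41. At matched time Bop1 and Wdr12 were -0.06 ± 0.15 and -0.42 ± 0.19 (adjusted p = 0.817 and 0.124).

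Nop2, a ribosomal RNA methyltransferase, was 0.78 ± 0.17 over time (adjusted p = 0.00505) and 1.00 ± 0.18 against 30 min (0.00251), just under 2-fold. Nip7, a small pre-ribosomal RNA binding protein, was 0.50 ± 0.17 over time (0.0404) and 0.70 ± 0.18 against 30 min (0.0167). Nop16, Ppan and Wdr74, all nucleolar factors of large subunit maturation, did not pass the test in any comparison. Their differences ran from 0.22 ± 0.14 (Ppan) to 0.53 ± 0.18 (Nop16) over time and from -0.38 ± 0.20 (Nop16) to 0.13 ± 0.18 (Wdr74) at matched time.

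The late assembly genes of the small subunit had a median of 1.32 against 30 min, which was 0.81 over 3 genes without probe sets that can hybridize with other transcripts. They were above 0 at matched time in 4 of 4, with a median of 0.38. None was called at matched time. Tsr1, a GTPase-like factor of late small subunit particles, had signals of 1038, 1132, 1889 and 1327 at 30 min, 3153, 2644, 3113 and 3209.5 at 4.5 h and 4934, 4424 and 4875 with IL-2. The groups were stacked without overlap. Tsr1 rose by 1.2 ± 0.18 over time (adjusted p = 0.000832) and 1.84 ± 0.20 against 30 min (0.000144), and was 0.65 ± 0.20 at matched time (0.0324). Its other probe set was called at 1.57 over time and 2.05 against 30 min, and gave 0.48 at matched time (adjusted p = 0.1015). The matched difference thus passed the adjusted p on 1 of 2 probe sets. Both probe sets are of the type that can hybridize with other transcripts.

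Ltv1, which is known from yeast to be released before the small subunit is complete, had signals of 932, 728, 1243 and 938 at 30 min, 1385, 1209, 1229 and 1170.3 at 4.5 h and 1493, 1710.4 and 1793 with IL-2. The IL-2 arrays were above all others, and the 4.5 h and 30 min arrays overlapped. Ltv1 was 0.81 ± 0.18 against 30 min (adjusted p = 0.008), 0.40 ± 0.16 over time (0.0939) and 0.41 ± 0.18 at matched time (0.113). Rrp12, an export factor, was dim at 30 min. Its signals were 106, 11.3, 162 and 130.0 at 30 min, 312, 320.3, 308 and 293 at 4.5 h and 359, 324 and 452 with IL-2. All 30 min arrays were below all others, replicate 2 by far the lowest. Rrp12 rose by 1.75 ± 0.48 over time (adjusted p = 0.0185) and 2.02 ± 0.52 against 30 min (0.017), with 95% intervals of 0.69 to 2.81 and 0.87 to 3.17. Within the first scan day its difference was 2.31 and was not called (adjusted p = 0.0546). Bysl, which encodes bystin, was 0.58 ± 0.16 against 30 min (adjusted p = 0.021), 0.23 ± 0.15 over time (0.262) and 0.35 ± 0.16 at matched time (0.12). The dimmer Bysl probe set gave 0.96 (adjusted p = 0.00154), 0.185 (0.37) and 0.78 (0.0047) in that order, without a call. Bysl thus passed the adjusted p at matched time on 1 of 2 probe sets.

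**Figure D3:**
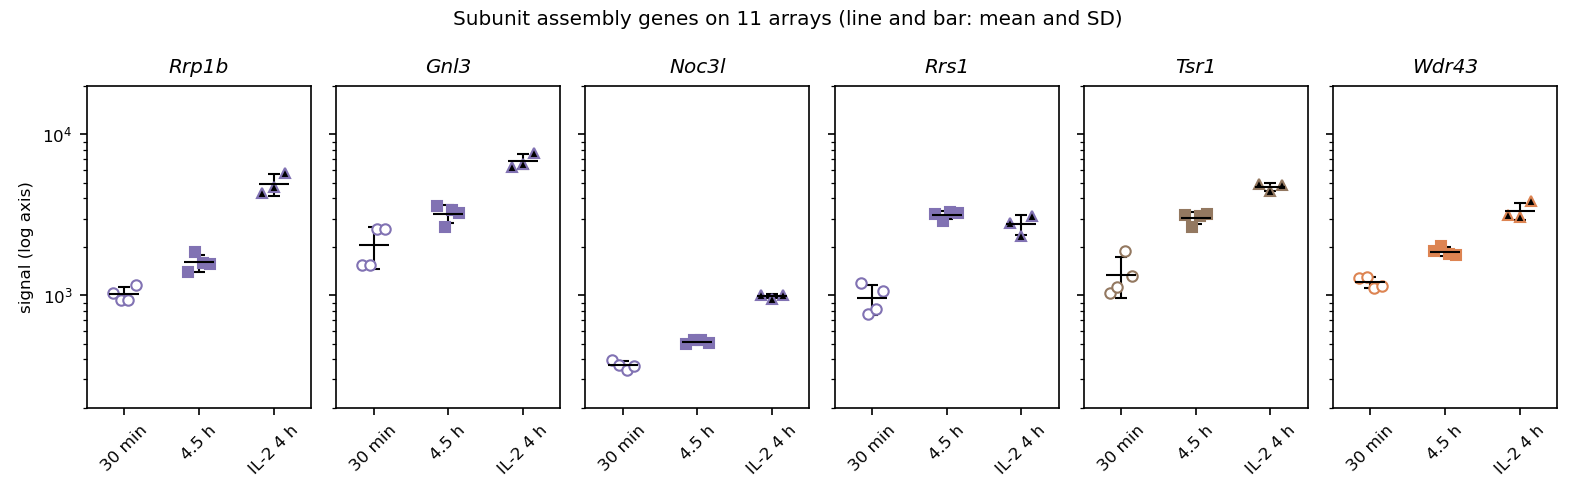
Signal (log axis) of 6 subunit assembly genes on 4 arrays at 30 min (circles), 4 at 4.5 h (squares) and 3 with IL-2 for 4 h (triangles), with the mean as a line and the SD as a bar. Rrp1b, Gnl3, Noc3l, Tsr1 and Wdr43 are highest with IL-2 on these brightest probe sets, and Rrs1 is at similar levels at 4.5 h and with IL-2. The other Rrs1 probe set, not drawn, gave -0.52 at matched time.

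Set side by side, the roles differed most at matched time. The medians there were -0.76 for box H/ACA, -0.41 for the organisers, -0.07 for box C/D, 0.07 for the early large subunit, 0.10 for the early small subunit and 0.38 for the late genes. Over time the medians were 1.2 for box C/D, 1.04 for box H/ACA, 0.80 for the late genes, 0.65 for each of the early subunit roles and 0.55 for the organisers. Against 30 min they were 1.32 for the late genes, 1.24 for box C/D, 0.96 for the early small subunit, 0.74 for the early large subunit, 0.45 for box H/ACA and 0.36 for the organisers. The role medians over time and against 30 min stayed above 0 under each scaling tried, but their order depended on the probe set rule. Without probe sets that can hybridize with other transcripts, the medians over time were 0.40 for 3 late genes and 0.72 for 4 box H/ACA genes. Against 30 min these were 0.81 and 0.13. With the mean over the probe sets of a gene, the early large subunit median was 0.36 in both comparisons. At matched time the signs of the box C/D and organiser medians also depended on the probe set rule. Roles hold 3 to 13 genes, and the differences between them were not tested. The values of a role on single arrays are shown in the plot of role means by array. There the box H/ACA mean was 0.99 to 1.2 at 4.5 h and 0.48 to 0.64 with IL-2, relative to the 30 min mean. The late mean was 0.84 to 0.97 at 4.5 h and 1.22 to 1.47 with IL-2, but spread from -0.57 to 0.46 at 30 min, where Rrp12 was dim.

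**Figure D4:**
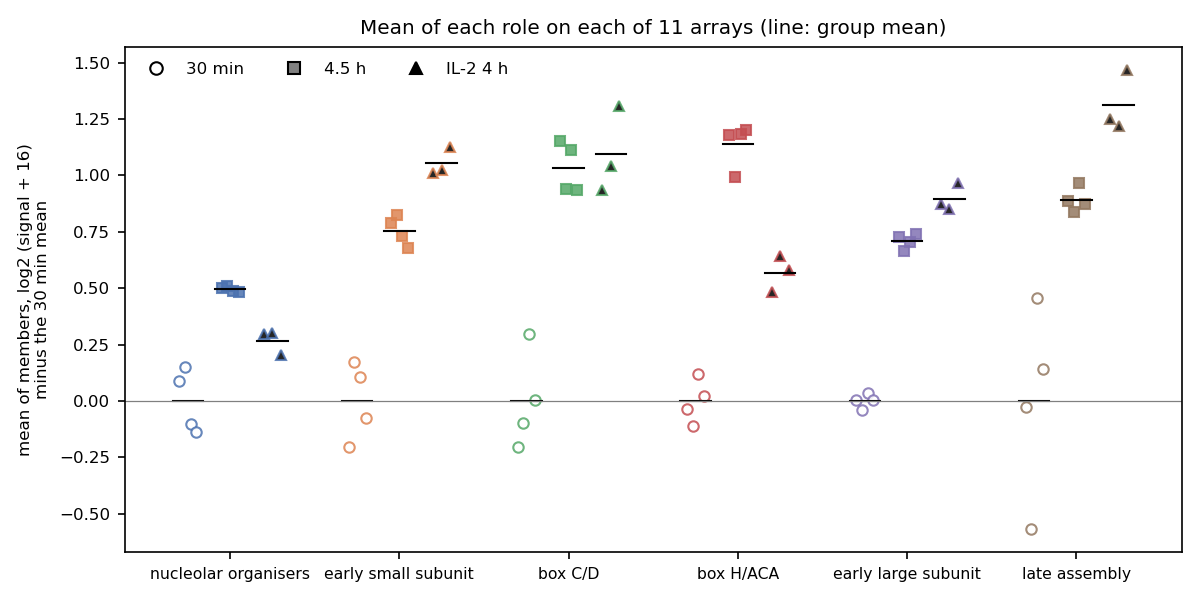
Mean over the genes of each role on each of 11 arrays (vertical axis, log2 of signal + 16 minus the 30 min mean of the role) at 30 min (open circles), 4.5 h (squares) and with IL-2 for 4 h (triangles); lines are group means. On the deposited scale the box H/ACA and organiser means are lower with IL-2 than at 4.5 h. On that scale the early small subunit, early large subunit and late means are higher. The organisers' median difference was above 0 with quantile normalization (0.04), ribosomal protein centring (0.28) and the mean over the probe sets of a gene (0.06).

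Other genes of the pathway were mostly higher over time and against 30 min as well. Of 85 tested of 86 further ribosome biogenesis genes, 17 were called higher over time and 22 against 30 min, with medians of 0.49 and 0.69. The backgrounds were 7.22% and 6.94% of all genes. In neither comparison was any called lower (backgrounds 4.75% and 4.46%). At matched time 2 were called higher, a share below the background of 5.04%, and 0 lower (background 5.94%). These 2, Nol10 and Utp15 of the small subunit processome, were higher by 1.02 ± 0.17 and 1.01 ± 0.18 (adjusted p = 0.00163 and 0.0023). The lowest adjusted p-values over time were those of Rrp15, Urb2, Pelp1, Ddx31 and Nufip1, of which Nufip1 acts in box C/D particle assembly. Rrp15, a large subunit factor, rose by 2.09 ± 0.18 over time, from a mean of 336 to 1469, and by 1.86 ± 0.20 against 30 min. Surf6, a nucleolar protein, led against 30 min with 1.86 ± 0.16 (adjusted p = 3.493e-05), followed by Rpf2, Ddx31, Nufip1 and Rrp15. Of 12 tested of 15 genes of RNA polymerase I transcription, 4 were called higher over time (Taf1c, Polr1b, Taf1d and Taf1a), 5 against 30 min (the same 4 and Ttf1) and 1, Ttf1, at matched time, where this termination factor rose by 1.08 ± 0.13 (adjusted p = 0.000283). Polr1b, the second largest polymerase I subunit, had means of 144 at 30 min, 431 at 4.5 h and 348 with IL-2. Of 13 tested of 14 exosome genes, Exosc2 rose over time, Dis3 and Exosc3 against 30 min, and Exosc3 at matched time. The matched difference of Exosc3 was 1.10 ± 0.32 (adjusted p = 0.0251), with an SD of 1336 around a mean of 2897 on the IL-2 arrays. For the polymerase I and exosome lists the backgrounds called higher are 7.22% over time, 6.94% against 30 min and 5.04% at matched time. In lists of 12 and 13 genes, 1 call is near these shares.

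On the deposited scale, the median of the genes of the ribosomal proteins that these factors assemble was lower with IL-2. Of 41 tested of 42 genes, 4 (Rpl37, Rpl27a, Rps6 and Rpl8) were called lower with IL-2 at matched time and 0 higher. The backgrounds were 5.94% and 5.04% of all genes. By the adjusted p alone 29 were lower, against a background of 16.1%. Their median was -0.79 at matched time, -0.47 against 30 min and 0.30 over time, against 0.09, 0.75 and 0.68 for the biogenesis factors. With quantile normalization the matched median was -0.09 and that against 30 min -0.03, and with median centring they were -0.74 and -0.35, so the size of the difference depended on the normalization. Against 30 min 1, Rpl14, was called lower (background 4.46%), and over time 1, Rpl27a, was called higher (background 7.22%). Rpl37 had means of 2492 with IL-2, 7185 at 4.5 h and 4177 at 30 min. The 2 lists were not compared by a test, and they share all arrays. Centring on these genes sets their mean level equal on every array and shifts every other gene as given above.

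**Figure D5:**
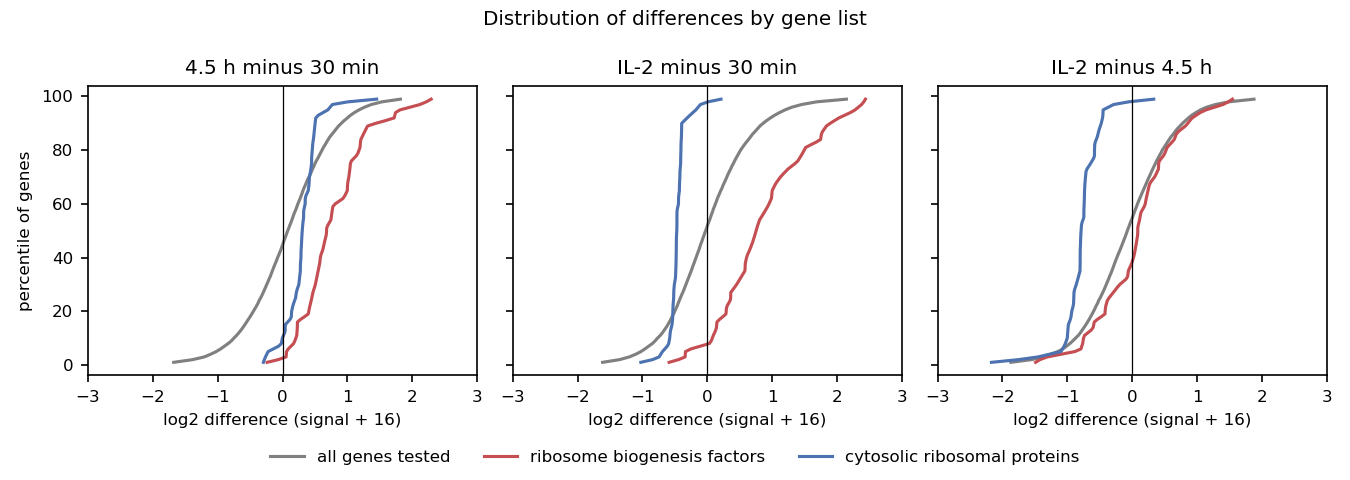
Percentile of genes (vertical axis) against the log2 difference (horizontal axis, signal + 16) in 3 comparisons, for all 12754 genes tested (grey), 38 ribosome biogenesis factors (red) and 41 cytosolic ribosomal proteins (blue). The medians of the factors are 0.68, 0.75 and 0.09 from left to right, those of the ribosomal proteins 0.30, -0.47 and -0.79.

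Myc, the gene of the transcription factor named above, was higher with IL-2 than in either other group. Its signals were 279, 197, 135 and 253 at 30 min, 145, 255, 141 and 126 at 4.5 h and 1916, 2113 and 1381 with IL-2. The 3 IL-2 arrays were far above the 8 others, which overlapped. Myc rose by 3.34 ± 0.29 at matched time (adjusted p = 5.855e-05) and 2.99 ± 0.29 against 30 min (7.551e-05), and was -0.35 ± 0.27 over time (0.351). The 8 members with the motif in their promoter window, whose sequences are printed above, had a median of 0.15 at matched time, 0.90 against 30 min and 0.73 over time. The 24 members with a window without it had medians of 0.10, 0.64 and 0.61. At matched time the values of the 8 ran from -0.58 (Mybbp1a) to 0.83 (Wdr43). This is a description of 8 genes, with no test.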

How the data were processed

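The authors deposited linear intensity signals, 1 for each probe set on each array, which the submitters' processing notes credit to GCOS 1.3. All arrays shared 1 trimmed mean once the outer 2% at each end were dropped, so scaling preceded the deposit. How background was corrected and probes were summarised is not given in the sources used here. Scanner information files, also deposited and read per the file headers, served only to number scan days.

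Signals were taken as log2(signal + 16) without further normalization, which understates differences of dim probe sets. Of 45101 probe sets, 64 controls were left out. The test covered 27022 of the other 45037, those whose mean log2 reached the 40th percentile (a signal of 33.6). The platform's probe table gave the gene symbols: 34945 probe sets had 1 symbol, 932 several and 9160 none. The brightest probe set stood for each of 12754 genes.

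Groups followed the labels. IL-2 replicate 3 was left out, and a linear model with 3 groups was fitted in R 4.3.3 to 11 arrays (limma 3.58.1, functions lmFit and eBayes). The Benjamini-Hochberg adjustment covered all tested probe sets, and calls needed an adjusted p under 0.05 and at least 2-fold. The fit was tested on simulated data. Replicate numbers are shared between groups, and deviations of 10 same-numbered pairs correlated at -0.02 to 0.22, only 2 of them above 0.1. The numbers were therefore not taken to pair arrays.

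Values on every array are given for the 3 members of each role with the lowest adjusted p over the comparisons and, chosen after their values were seen, for Nhp2, Gnl3 and Rrp9. For called genes of the other lists up to 5 by adjusted p are named. The members and the lists of roles, pathway genes and markers were chosen with earlier results of these data known. Roles and lists are described by counts and medians, without tests. The alternatives were 3 other normalizations, pseudocounts of 1 and 64, no filter and a 60th percentile filter, other eBayes settings, array weights, other call rules, other probe set rules, only the groups compared, replicate or scan day as a block, all 12 arrays, and leaving out each array. Figures were drawn with matplotlib 3.10.9 (python 3.11.15).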

Additional observations from a re-analysis of the deposited data

Results flagged for a closer look

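In groups of 4 arrays, 9 of 76 gene and group combinations had 1 array farther from the rest than Dixon's critical value allows. Chance gives about 1 in 20. Replicate 2 of the 4.5 h group held 4 of them. There Dkc1 was 1131 (others 1872 to 2003), Rrs1 was 2890.1 (others 3209 to 3276), Tsr1 was 2644 (others 3113 to 3209.5) and Nop2 was 1218 (others 868.3 to 908.4). In the same group Gar1 was 2227 in replicate 4 (others 1926 to 1957). At 30 min replicate 3 held 3: Naf1 at 885 (others 999.6 to 1022), Nolc1 at 645 (others 829.8 to 863) and Nop56 at 1888 (others 989.8 to 1091). Nop2 was 436 in replicate 4 of the 30 min group (others 587 to 612). Replicate 3 at 30 min was scanned on the second day, apart from the rest of its group, and the part of the scan day in these values was not tested. Leaving out each array in turn, flagged or not, kept Dkc1 and Naf1 on the same side of 0 in the comparisons in which they were called. Over all these fits Dkc1 was at -1.74 to -1.47 and Naf1 at 1.40 to 1.47 at matched time.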

How the results depend on the processing

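In each sentence the first comparison is IL-2 at matched time, then time in cycloheximide, then IL-2 against 30 min. With all 12 arrays, members called higher numbered 0, 8 and 12, and 1 (Dkc1) was called lower at matched time. Of all 27022 probe sets, 505, 910 and 450 were called higher in that fit, and 691 lower at matched time. Ribosomal protein centring gave 12, 4 and 23 higher and 0 lower, and raised the share of higher among all called probe sets from 54.6% to 96.3%, lowered it from 48.9% to 18.7%, and raised it from 59.7% to 91.6%. It changed the sign of 10, 6 and 2 members, and with it 25.4%, 3.15% and 14.9% of all genes were called higher. Median centring gave 3, 15 and 17 higher, with 73.0% of called probe sets higher in the third comparison. Its backgrounds were 5.46%, 8.84% and 8.57% of all genes called higher. Quantile normalization gave 3, 12 and 12 higher, against 4.89%, 6.93% and 6.29% of all genes. Without a fold threshold 7, 29 and 26 were higher and 7, 0 and 1 lower. The backgrounds were 13.2%, 20.0% and 14.5% of all genes higher and 16.1%, 13.7% and 12.5% lower. Testing against a 1.2-fold change gave 6, 20 and 19 higher and 4 lower at matched time. Of all 27022 probe sets, 2102, 2446 and 2091 were then higher, and 1944 lower at matched time. At matched time 1 member was lower with the mean over probe sets (Nhp2) and 1 without probe sets that can cross-hybridize (Dkc1). In these fits 518 of all 10916 genes and 1146 of all 24305 probe sets were called lower. Leaving out each array in turn gave 2 to 3, 11 to 14 and 12 to 15 called higher, and 2 lower at matched time every time. Of all 27022 probe sets, 1551 to 1796, 1583 to 1798 and 1540 to 1822 were called higher in these fits. At matched time 1347 to 1495 were called lower. The replicate block gave 3, 13 and 13 higher and 2, 0 and 0 lower, the same counts as without it. With it 1703, 1755 and 1696 of all 27022 probe sets were called higher and 1484, 1823 and 1158 lower. Differences that had passed the adjusted p and changed sign, or that passed it after changing sign, were all at matched time: Mybbp1a at 0.01 with 12 arrays, and Bop1 at 0.64, Gar1 at 0.0909 and Mybbp1a at 0.11 under ribosomal protein centring. The cause was not tested. Utp20, Naf1, Nhp2 and Gar1 lay close to the fold threshold over time, at 1.00, 1.02, 1.04 and 1.05, and Rrp12 against 30 min was called in 22 of 27 alternatives. Few arrays, dim 30 min signals of Rrp9 and Rrp12, and scan days that separate the 4.5 h group limit these values.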

Other observations

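The IL-2 array that was left out carried some of the factors at levels unlike those of its group. Mybbp1a had a signal of 10021 there, against at most 1944 on the other IL-2 arrays, Nhp2 11203 against at most 3125, and Fbl 8959 against at most 2771. In contrast Noc3l was 100.0 against at least 953, Ddx21 401 against at least 1701, and Rrp1b 891 against at least 4316. Some role means lay within those of the other IL-2 arrays, relative to the 30 min mean. The early small subunit mean was 1.06 (others 1.01 to 1.13) and the box C/D mean 1.17 (others 0.94 to 1.31). Myc was 1878 on that array, within the 1381 to 2113 of the others. These are values of 1 library whose T cell transcripts were missing.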
